A study of Homo sapiens with 6 samples.

Results

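The 6 human DNA topoisomerase genes (TOP1, TOP1MT, TOP2A, TOP2B, TOP3A and TOP3B) and the 2 tyrosyl-DNA phosphodiesterase genes (TDP1 and TDP2) were followed by symbol, 8 of 30676 genes in the deposited table. All 8 were found and all 8 passed the filter on low values. RNA came from cells labelled HCT116, an established human colorectal cancer line of wild-type genotype per the labels. All cells were kept at 1% oxygen, and 3 libraries had received GIA, a genistein isoflavonoid alkaloid, at 10 µM for 24 hours. The other 3 libraries had received the vehicle DMSO at 0.1% for 24 hours, and no DMSO content is stated for the GIA libraries. No normoxic group and no genistein group was included, and the labels name no separate cultures behind the 3 libraries of a treatment. The p-values therefore rest on library-to-library spread, which may be technical.

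Topoisomerases relieve the twisting and tangling of DNA that replication, transcription and mitosis create. Each cuts DNA through a tyrosine that stays joined to the cut end for a moment: type IB and type IA enzymes cut a single strand, type II enzymes cut both. Drugs called poisons hold the enzyme on the cut end, and tyrosyl-DNA phosphodiesterases then help to remove the trapped protein. Genistein, the soy isoflavone named in the description of GIA, is known as a poison of type II topoisomerases. That action is on the enzyme, and the libraries measured transcript levels alone.

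The cells did not carry all markers of a colorectal epithelial line. The keratins KRT8 (134 to 151 FPKM), KRT18 (219 to 274) and KRT19 (26.2 to 29.9) were high, where FPKM is fragments per kilobase of gene, scaled to library size. The epithelial adhesion genes EPCAM and CDH1 were at most 0.335 and 0.049 FPKM, and VIL1, of the intestinal brush border, at most 0.0122. Of 4 fibroblast markers, lumican (LUM) had 157 to 197 FPKM, DCN 11.2 to 16, PDGFRB 3.77 to 5.38 and COL1A1 2.23 to 3.17. Their summed level ranged over 178 to 195 FPKM with DMSO and over 175 to 222 with GIA. Among leukocyte and endothelial markers, PTPRC, LYZ, VWF, CDH5 and PECAM1 were at most 0.123 FPKM, and CD68, a lysosomal protein of many cells, had 17 to 24.6. HCT116 is therefore used here as the name on the labels. In bulk RNA, fewer cells of a kind and less RNA per cell cannot be told apart.

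GIA library 2 stood apart from the rest. It was the highest or lowest of the 6 libraries for 53.5% of 13721 tested genes, against 23.6% to 33.9% for each other library. Of the 8 genes followed here, it was outside the range of the other 5 libraries for 6. It also had the highest LUM, DCN, PDGFRB and COL1A1 levels and the lowest KRT8 and KRT18 levels, with KRT19 (27.7 FPKM) inside the range of the others. The part of these markers in the topoisomerase levels of GIA library 2 was not tested.

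TOP2A was the most abundant of the 8 transcripts, and its start and that of its isozyme TOP2B are shown because these 2 genes encode the type II enzymes, the class that genistein is known to poison. The 250 bases before the RefSeq start (GRCh38.p14) are written 5′ to 3′, with each CCAAT box in capitals. All these boxes are on the opposite strand and read ATTGG. The TOP2A stretch is chr17:40417897-40418146, minus strand. The TOP2B stretch is chr3:25664908-25665157, minus strand, before the farther of 2 RefSeq starts. The deposited TOP2B gene begins at the nearer start (25664372), whose stretch is not shown.
TOP2A: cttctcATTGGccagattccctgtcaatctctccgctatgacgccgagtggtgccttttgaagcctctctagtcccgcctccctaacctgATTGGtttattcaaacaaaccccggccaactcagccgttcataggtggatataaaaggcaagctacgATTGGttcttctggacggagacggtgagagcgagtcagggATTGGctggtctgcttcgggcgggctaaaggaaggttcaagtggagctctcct
TOP2B: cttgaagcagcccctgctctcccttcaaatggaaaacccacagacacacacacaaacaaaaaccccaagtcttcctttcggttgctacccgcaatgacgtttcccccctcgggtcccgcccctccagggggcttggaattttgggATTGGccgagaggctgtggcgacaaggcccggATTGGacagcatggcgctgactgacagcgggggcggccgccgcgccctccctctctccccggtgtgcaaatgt
TOP2A held 4 CCAAT boxes. CCAAT, searched on both strands, was found at least once in 32% of 35116 promoter stretches of this length. It was found 4 or more times, a cut equal to the count of TOP2A itself, in 0.874%. TOP2B held 2 before this start and 0 before its other start, where the deposited gene begins. TOP1, TOP3A, TOP3B, TDP1 and TDP2 held 0. Stretches of 7 of the 8 genes were searched, and TOP1MT was left out of this search. TTTGAA, a letter run of the cell cycle homology region known from mitotic genes, occurred 2 times in the TOP2A stretch and 1 time each in this TOP2B stretch and that of TDP1, and at least once in 13.3% of all stretches, on either strand. A match to letters is a description of the sequence and not a binding site.

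None of the 8 genes was called as higher or lower with GIA. By edgeR's quasi-likelihood test with Benjamini-Hochberg adjustment over 13721 genes, 0 of 8 passed, beside 0.00% of all tested genes (smallest adjusted p 0.874). At an unadjusted p under 0.05 there were 0 of 8, beside 4.63% of tested genes (635, of which 359 were higher and 276 lower with GIA). DESeq2 called 0 genes (651 at an unadjusted p under 0.05) and limma 0 (670). The log2 fold changes of the 8, GIA over DMSO, were negative for 7 and positive for TOP2A alone, with a median of -0.04 against 0.00012 over all tested genes. The largest in size was 0.07, a size reached or passed by 42.6% of tested genes. The 95% intervals of all 8 lay within 1.2-fold of no change, from 0.867-fold to 1.11-fold. The 1.2-fold bound was not part of the planned tests. The intervals rest on library-to-library spread, which may be technical, so they do not exclude a larger change between separate cultures. These intervals are of single genes, not adjusted for their number.

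**Figure D1:**
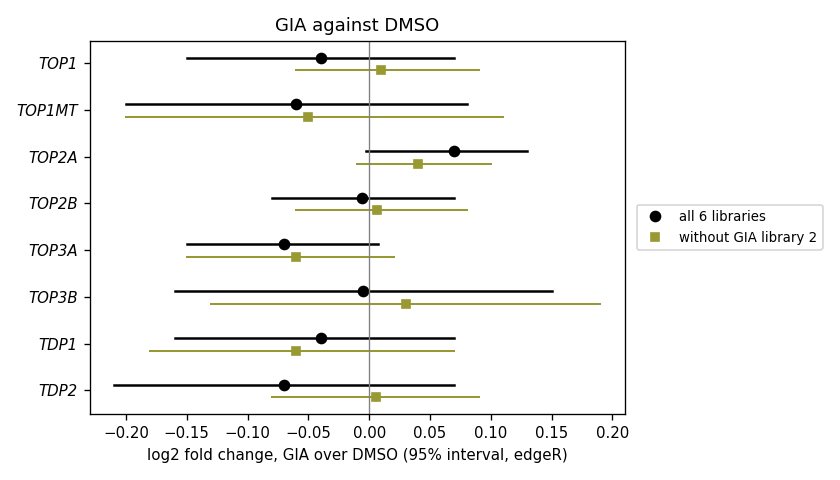
Log2 fold change of each gene, GIA over DMSO, with its 95% interval from edgeR's quasi-likelihood test, for all 6 libraries (circles) and without GIA library 2 (squares). Every interval includes 0; the TOP1 and TDP2 points move from -0.04 and -0.07 to 0.01 and 0.0052 when that library is left out.

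TOP1 (ENSG00000198900, chromosome 20, 41028822 to 41124487, plus strand, GRCh38) encodes the nuclear type IB enzyme, which relaxes supercoils ahead of polymerases and is the target of camptothecin. It had 33.2, 32.7 and 32.7 FPKM in DMSO libraries 1 to 3 and 33.8, 29.9 and 32.4 in GIA libraries 1 to 3. The groups overlapped: GIA library 1 was the highest and GIA library 2 the lowest of all 6. The means were 32.9 ± 0.284 in controls and 32.0 ± 1.95 under GIA (SD, n = 3 each), a log2 fold change of -0.04 (SE 0.05, edgeR adjusted p = 0.91). Without GIA library 2 it was 0.01 (SE 0.03).

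TOP1MT (ENSG00000184428, chromosome 8, 143304384 to 143359979, minus strand) encodes the mitochondrial type IB enzyme. Its levels were 4.66, 4.22 and 4.4 FPKM with DMSO and 4.13, 4.17 and 4.43 with GIA. The groups overlapped, with DMSO library 1 the highest and GIA library 1 the lowest. The log2 fold change was -0.06 (SE 0.06, edgeR adjusted p = 0.888).

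TOP2A (ENSG00000131747, chromosome 17, 40388525 to 40417896, minus strand) encodes the type II enzyme of dividing cells, which separates sister chromosomes and is the target of etoposide and doxorubicin. Its 3 DMSO libraries held 70.6, 70.0 and 70.6 FPKM, and its 3 GIA libraries 72.0, 76.6 and 73.0. The groups did not overlap, with each GIA library above each DMSO library and GIA library 2 the highest. The same held for 1 of the 8 genes (TOP2A) and 5.63% of tested genes. The means were 70.4 ± 0.334 and 73.8 ± 2.42 (SD, n = 3 each), which is 0.07 on the log2 scale (SE 0.03, 95% interval -0.0023 to 0.13, edgeR unadjusted p = 0.0567, adjusted p = 0.874). Without GIA library 2 it was 0.04 (SE 0.02).

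TOP2B (ENSG00000077097, chromosome 3, 25597905 to 25664372, minus strand) encodes the type II isozyme found in dividing and resting cells alike, which acts at transcribed genes. It was the steadiest of the 8, with 29.2, 28.7 and 28.7 FPKM with DMSO and 29.2, 28.5 and 28.6 with GIA. All 6 values lay within 1.03-fold of each other, and the coefficient of variation over the 6 libraries was 1.04%, against a median of 6.42% over tested genes. All 8 genes lay under this median (highest 5.99%). It covers genes of every tested level, and genes of like level were not compared. The groups overlapped, and the log2 fold change was -0.0057 (SE 0.03, edgeR adjusted p = 0.983).

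TOP2A made up 70.8% to 71.1% of the summed TOP2A and TOP2B FPKM with DMSO, and 71.1%, 72.9% and 71.8% in GIA libraries 1 to 3. The ratio of TOP2A to TOP2B was 2.42, 2.44 and 2.46 with DMSO and 2.46, 2.69 and 2.55 with GIA. DMSO library 3 and GIA library 1 differ beyond the digits shown, so the groups touched without overlapping. The ratio differed by 0.07 on the log2 scale, with an exact two-sided permutation p of 0.1, the smallest that 3 against 3 allows (0.15 adjusted over 3 ratios). Without GIA library 2 the difference was 0.04.

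TOP3A (ENSG00000177302, chromosome 17, 18271428 to 18315007, minus strand) encodes the type IA enzyme that works with the BLM helicase to dissolve joined DNA molecules. It had 7.8, 7.95 and 8.01 FPKM with DMSO and 7.6, 7.49 and 7.54 with GIA. Each GIA library was below each DMSO library, as for 5.60% of tested genes. TOP3A was the 1 gene of the 8 with this pattern. The means were 7.92 ± 0.11 and 7.54 ± 0.0578 (SD, n = 3 each), which is -0.07 on the log2 scale (SE 0.04, 95% interval -0.15 to 0.0076, edgeR unadjusted p = 0.0708, adjusted p = 0.874). Leaving out any 1 library kept it between -0.08 and -0.06.

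TOP3B (ENSG00000100038, chromosome 22, 21957025 to 21982793, minus strand) encodes the type IA enzyme that also acts on RNA, together with TDRD3. It had the lowest level of the 8, with 3.21, 3.27 and 3.46 FPKM with DMSO and 3.25, 3.17 and 3.5 with GIA. Library 3 of each group was the highest, and the groups overlapped (log2 fold change -0.0049, SE 0.07, edgeR adjusted p = 0.993). Its sequence is the least distinct of the set: 13.2% of the 50-base words in its transcripts also occur in TOP3BP1, a pseudogene by its name. TOP3BP1 was listed at 0.416, 0.591 and 0.637 FPKM with DMSO and 0.35, 0.405 and 0.476 with GIA and was under the filter in mean. An antisense gene, AC245452.1, overlaps 6024 exonic bases of TOP3B and had 0.235 FPKM in mean. TOP1 shared 4.99% of its words with the gene model AL031274.1 and TOP3A 0.57% with other genes, whereas TOP1MT, TOP2A, TOP2B, TDP1 and TDP2 shared 0.

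TDP1 (ENSG00000042088, chromosome 14, 89954939 to 90044764, plus strand) encodes the phosphodiesterase that frees TOP1 from a 3′ end. It had 5.47, 5.5 and 5.18 FPKM with DMSO and 5.2, 5.36 and 5.14 with GIA. DMSO library 3 lay among the GIA libraries, and the log2 fold change was -0.04 (SE 0.05, edgeR adjusted p = 0.904).

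TDP2 (ENSG00000111802, chromosome 6, 24649979 to 24666899, minus strand) encodes the phosphodiesterase that frees type II enzymes from a 5′ end. It had 33.1, 32.9 and 33.2 FPKM with DMSO and 32.2, 28.6 and 34.1 with GIA. GIA libraries held both the highest and the lowest value, and the spread with GIA (31.6 ± 2.79) was larger than with DMSO (33.1 ± 0.182; SD, n = 3 each). GIA library 2 was at 86.4% of the mean of the other 5 libraries, and without it the coefficient of variation was 2.03% in place of 5.99%. The log2 fold change was -0.07 (SE 0.06, edgeR adjusted p = 0.878), and 0.0052 (SE 0.04) without GIA library 2.

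**Figure D2:**
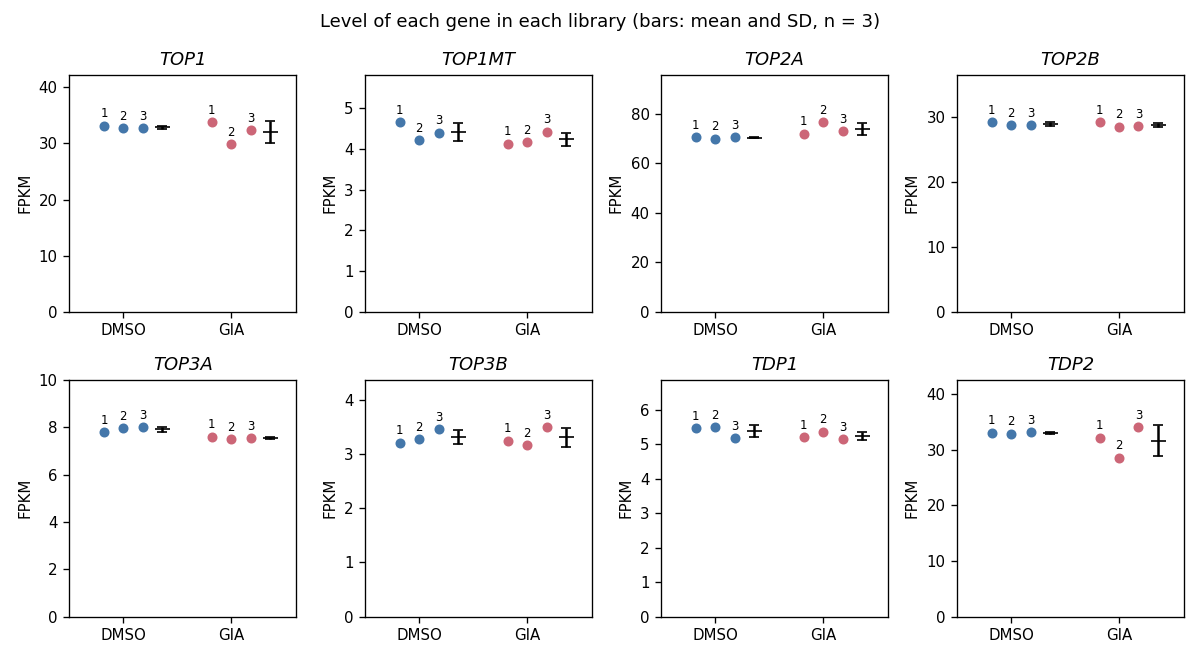
FPKM of each gene (axis from 0) in DMSO and GIA libraries; points are libraries with their number, bars the mean and SD of 3. TOP2A is higher in each GIA library (72.0 to 76.6) than in each DMSO library (70.0 to 70.6), TOP3A lower, and GIA library 2 is lowest for TOP1 (29.9) and TDP2 (28.6).

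The ratio of TDP2 to TOP2A, the phosphodiesterase to a substrate enzyme, was 0.469, 0.469 and 0.47 with DMSO and 0.448, 0.373 and 0.466 with GIA. Each GIA library was below each DMSO library, and GIA library 2 was the lowest. The difference was -0.14 on the log2 scale (exact two-sided permutation p = 0.1, the smallest possible, 0.15 adjusted over 3 ratios), and -0.04 without GIA library 2. TOP2A is also part of the TOP2A to TOP2B ratio, so these ratios are not separate observations. The ratio of TDP1 to TOP1 was 0.165, 0.168 and 0.158 with DMSO and 0.154, 0.179 and 0.159 with GIA. These overlapped, with a log2 difference of -0.0021 (exact two-sided permutation p = 1).

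**Figure D3:**
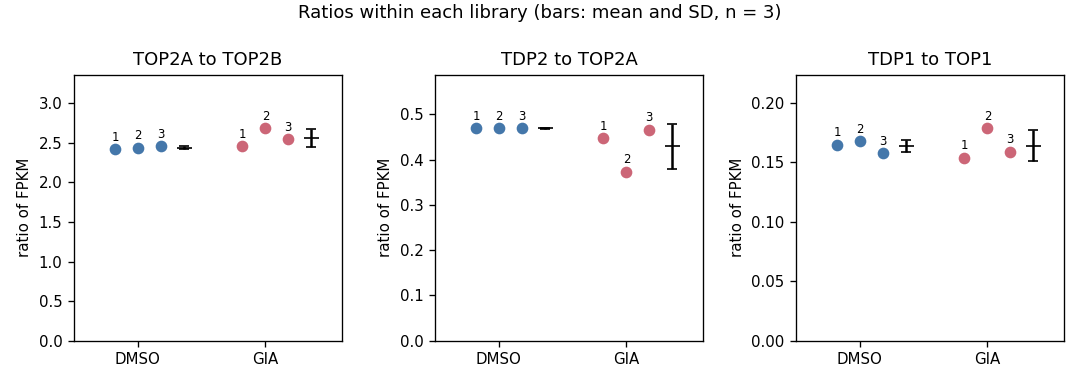
Ratios of FPKM within each library (axis from 0), with library numbers, mean and SD of 3. GIA library 2 has the highest TOP2A to TOP2B ratio (2.69), the lowest TDP2 to TOP2A ratio (0.373) and the highest TDP1 to TOP1 ratio (0.179).

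Compared per length as deposited, the mean FPKM over 6 libraries placed TOP2A first (72.1), then TOP1 (32.5), TDP2 (32.3), TOP2B (28.8), TOP3A (7.73), TDP1 (5.31), TOP1MT (4.33) and TOP3B (3.31). TOP1 and TDP2 overlapped in both groups. TDP2 and TOP2B overlapped with GIA and did not with DMSO. Each other pair of neighbours was apart in both groups. TOP2A ranked 477th of 13721 tested genes by level, and TOP3B 8511th.

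This order depended on the gene length used by the authors. The ratio of count to FPKM gave implied lengths of 3734 bases for TOP1 and 6438 for TOP1MT, close to the union of all annotated exons in GENCODE 29 (3738 and 6441). The APPRIS principal transcript, the main protein-coding form, has 3738 bases for TOP1 and 1958 for TOP1MT. For TOP3A the implied length of 8240 bases was above the GENCODE union of 6476. Rescaled to principal transcripts, a calculation chosen after seeing the data, TOP2A stayed first at 79.9 and TDP2 came second at 46.5 (41.1 to 49 over libraries). TOP1 had 32.4 and TOP2B 32.3, TOP3A 15.5, TOP1MT 14.3 (13.6 to 15.3), TDP1 8.95 (8.67 to 9.28) and TOP3B 7.1. TDP2 thus lay above TOP1, and TOP1MT above TDP1, with no overlap of libraries. Rescaling assumes that all fragments came from the principal transcript. It leaves the GIA comparison as it was, since a gene's length is the same in every library.

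**Figure D4:**
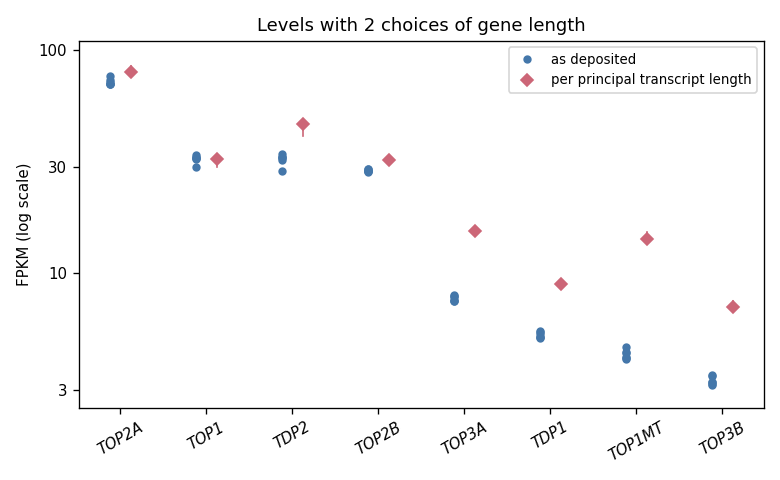
Level of each gene on a log axis, as deposited (circles, 1 per library) and rescaled to the principal transcript length (diamonds, mean; line, lowest to highest library). Rescaling lifts TOP1MT from 4.33 to 14.3 FPKM and TDP2 from 32.3 to 46.5, and leaves TOP1 at 32.4.

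Genes of proteins that work with these enzymes were read from lists, and 0 members of any list were called as higher or lower. Of 6 partners of the type IA enzymes (BLM, RMI1, RMI2, TDRD3, FMR1, FXR1), 0 passed, with 1 positive and 5 negative and a median log2 fold change of -0.03. FXR1, an RNA-binding relative of FMR1, had 0.06 (SE 0.04) and RMI1, which holds TOP3A to BLM, -0.08 (SE 0.09). FXR1 had 0.02 without GIA library 2, and RMI1 0.0044 without GIA library 1 and -0.17 without GIA library 2. All 7 genes of repair after TOP1 (among them PARP1, XRCC1, LIG3 and the TOP1-binding ligase TOPORS) did not pass, with 3 positive, 4 negative and a median of -0.02.

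XRCC1, the scaffold of single-strand break repair, had the smallest unadjusted p of all list members. It had 11.3, 11.6 and 11.6 FPKM with DMSO and 9.78, 10.8 and 10.5 with GIA. Each GIA library was below each DMSO library, as for 5.60% of tested genes. The log2 fold change was -0.15 (SE 0.06, edgeR unadjusted p = 0.0306, adjusted p = 0.874). An unadjusted p under 0.05 was found for 4.63% of tested genes and, among the list members, for XRCC1 alone. TOPORS had -0.07 (SE 0.05).

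Of 11 genes of repair after TOP2 (the MRE11 complex, RBBP8, ZNF451 and end joining), 0 passed, 4 were positive and 7 negative, with a median of -0.03. NBN, of the MRE11 complex, had -0.08 (SE 0.04) and XRCC6, the Ku70 subunit, -0.04 (SE 0.03). NBN had -0.05 without DMSO library 2 and also without GIA library 2. Of 4 tested genes that degrade or extract proteins crosslinked to DNA, 0 passed, 1 was positive and 3 negative, with a median of -0.04. The protease DDI2 had -0.08 (SE 0.05) and the segregase VCP -0.04 (SE 0.03), or -0.04 and -0.0092 without GIA library 2. C11orf80, which encodes a meiotic topoisomerase-like subunit, did not pass: its mean was 3.13 ± 0.123 FPKM in controls and 2.96 ± 0.262 under GIA (SD, n = 3 each).

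The chromosome condensation genes that share mitotic chromosomes with TOP2A were the list with mostly positive values. Of 10, 0 passed, 7 were positive and 3 negative, with a median of 0.02. The chromokinesin KIF4A had 8.17, 9.32 and 9.28 FPKM with DMSO and 9.37, 10.2 and 9.67 with GIA, a log2 fold change of 0.13 (SE 0.06, edgeR adjusted p = 0.874). Its groups did not overlap, as for 5.63% of tested genes that were higher with GIA. DMSO library 1 was the lowest, and the log2 fold change was 0.07 without that library. In the other lists, XRCC1, XRCC6, AEN, MDM2 and PLK2 also had no overlap but were lower with GIA, as 5.60% of tested genes were. SMC4, a condensin subunit, had 0.05 (SE 0.04), and 0.0091 without GIA library 2.

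Targets of p53 are known to be induced when trapped topoisomerases break DNA. None was called, as no tested gene was, and whether p53 functions in these cells was not tested. Of 22 tested, 0 passed, 9 were positive and 13 negative, with a median of -0.05, and -0.02 without GIA library 2. The nuclease gene AEN had 10, 10 and 10.2 FPKM with DMSO and 9.98, 7.79 and 9.09 with GIA. GIA library 2 was the lowest, and the log2 fold change was -0.18 (SE 0.08, edgeR adjusted p = 0.874), or -0.08 without that library. TIGAR had -0.15 (SE 0.09), or -0.08 without GIA library 2. The largest fold change in the list was positive: DDB2, a DNA damage sensor gene named after its values were seen, had 0.21 (SE 0.12), with GIA library 2 at 139% of the mean of the other 5. CDKN1A, the cell cycle inhibitor p21, went from 28.4 ± 0.81 FPKM in controls to 28.8 ± 0.923 under GIA, and MDM2, the p53 ligase, from 6.43 ± 0.0349 to 6.21 ± 0.104 (SD, n = 3 each); neither passed.

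Across the 6 libraries, the tested genes most like TOP2A by Pearson's r of log2(FPKM + 0.5) were H2BC7 (0.9982), CAMK2N1 (0.9973) and DAPK1 (0.9950). H2BC7 had 1.19 FPKM in GIA library 2 and 0.518 to 0.815 in the other 5. Without GIA library 2, the r with TOP2A was 1.00 for H2BC7, 0.99 for CAMK2N1 and 0.98 for DAPK1. With 6 libraries, 141 genes had an r above 0.95 with TOP2A, so these are the closest of many. For TOP1 the closest were HMGA1 (0.9979), GIT1 (0.9971) and KIF1C (0.9953), which also had their lowest level in GIA library 2 (288, 15.9 and 29.5 FPKM). Without that library their r with TOP1 was 0.98, 0.98 and 0.96. For TOP2B the closest included PARP12 (0.9789) and BRMS1 (0.9779), with 1.00 and 0.97 without GIA library 2. All these genes were picked with the same libraries included. These values share their libraries and are descriptions over 6 points. Among the 8 genes themselves, TOP1 and TDP2 had an r of 0.82 over 6 libraries and -0.83 over the 5 without GIA library 2. TOP1 and TOP2A had -0.83 and 0.01, whereas TOP2A and TOP3A had -0.84 and -0.91 and TOP1 and TOP2B 0.78 and 0.95.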

How the data were processed

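Strand-specific SMARTER mRNA libraries were made from total RNA, per the labels' protocols. The submitters' processing notes list HISAT2 2.2.1, StringTie 2.1.6, DESeq2 1.22.2, FastQC 0.10.1 and cutadapt with builds GRCh38 and hg38, without roles, and no annotation release. The authors deposited 1 table with an FPKM and a whole-number estimated count per gene and library, per the file headers; whether counting used strand is not given. Library totals were 55725249 to 67835059 estimated counts, and the 8 genes had 1304 to 36197 each.

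The 13721 genes whose FPKM averaged 0.5 or more were tested with edgeR 4.0.16 (quasi-likelihood, TMM scaling, two-sided, no covariate; R 4.3.3) on the estimated counts, with Benjamini-Hochberg adjustment and a threshold of 0.05. Intervals are 95% and each SE is the fold change divided by the root of F. DESeq2 1.42.0, limma 3.58.1 on log2 FPKM, other scalings and filters, a replicate block and leaving out each library were alternatives. Implied lengths were scaled on 409 genes with a single transcript, whose ratio lay between 95.1% and 102% of its median from the 10th to the 90th percentile. Promoters are RefSeq's.

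Named genes are the 8, the 2 of smallest p in each list and the 3 most alike TOP1, TOP2A and TOP2B, of which 1 is not reported here. Marker genes, CDKN1A, MDM2 and PLK2 were named beside these after values were seen. The genes followed and the lists were chosen with earlier results of these data known. Some listed genes were not analysed here.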

Additional observations from a re-analysis of the deposited data

How the results depend on the processing

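None of the 8 genes passed under any alternative run. The number of genes called in the whole table was 0 with all libraries, 3 with the replicate block, and 0 to 5 when 1 library was left out (0 without DMSO 1 or GIA 2, 2 without DMSO 2, 2 without DMSO 3, 1 without GIA 1 and 5 without GIA 3). Libraries with the same number deviated together only weakly (r = 0.0518, 0.0336 and 0.0967, each under 0.1 and above 0). Libraries with different numbers had an r of -0.0857 to 0.0348. The numbers were not taken to pair the libraries, and these values do not decide whether they do. With a mean FPKM of at least 5, TOP2B reversed to 0.0035, and TOP1MT and TOP3B, which are under that level, had no value. Leaving out 1 library gave log2 fold changes of -0.08 to 0.01 for TOP1, -0.02 to 0.0061 for TOP2B, -0.05 to 0.03 for TOP3B and -0.13 to 0.0052 for TDP2, each with a change of sign, and -0.10 to -0.02 for TOP1MT, 0.04 to 0.08 for TOP2A, -0.08 to -0.06 for TOP3A and -0.07 to -0.03 for TDP1. RMI1 ranged from -0.17 to 0.0044. List medians ranged from -0.04 to 0.02 for repair after TOP1 (0.02 without DMSO 3), -0.04 to -0.0093 for repair after TOP2 (-0.0093 without GIA 2) and -0.05 to -0.02 for p53 targets. They were -0.04 to -0.0008 for type IA partners (-0.0008 without GIA 1, -0.0025 without DMSO 3), -0.06 to -0.0098 for crosslink proteases (-0.0098 without GIA 2) and 0.0088 to 0.02 for condensation partners (0.0088 without GIA 1). C11orf80 ranged from -0.15 to -0.04. The log2 difference of the TDP1 to TOP1 ratio was 0.0030 with 1 added to each FPKM, and -0.07 to 0.04 without 1 library. Of the 8 genes, 4 kept their rank by level at the principal transcript length. The cause of these shifts was not tested, other than that of the rank, which is the length itself. Each of the 8 genes had at least 1304 estimated counts in each library.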

Other observations

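Fold changes were also read by the genomic span of the gene, from the coordinates of the table. None of the 8 genes followed spans over 100 kb. The median log2 fold change was -0.0028 over 6220 tested genes under 20 kb, -0.0039 over 5469 of 20 to 100 kb, 0.0108 over 1333 of 100 to 200 kb and 0.0264 over 699 above 200 kb. Negative values made up 51.2%, 52.3%, 42.6% and 34.3% of these genes, and 0 passed the edgeR test in any span class. The median of the longest class was 0.02 to 0.03 when any 1 library was left out, with the lowest value (0.0191) without GIA library 2, and 0.0257 with a mean FPKM of at least 5. Genes are not independent replicates, and the difference was not tested.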
